A study of Mus musculus with 8 samples.

Results

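Keratins and vimentin are the proteins of intermediate filaments, and the transcripts of 5 of their genes, Krt8, Krt18, Krt7, Krt19 and Vim, were followed here through 4 sorted fractions of mouse embryonic stem (ES) cells. The genes were taken by name, through the probes that a list made by the study pairs with these symbols, which gave 1 probe for each of the 5 genes among 42006 distinct probes on the array. That list holds only probes the study had called different among the fractions on the same arrays, so that a difference among fractions in these 5 probes is not independent evidence. The cells came from 2 HV clones, 5.1 and 16.1, of strain 129/Ola. HV cells derive from R26 BirA cells, which express a bacterial biotin ligase from the ROSA26 locus, and carry at the Hex locus a tagged Hex cDNA followed by an internal ribosome entry site and the gene for the fluorescent protein Venus. Both clones had been grown with LIF, the cytokine that keeps ES cells undifferentiated, for 24 hours before they were sorted for Venus (V) and for the surface antigen SSEA-1 (S), which undifferentiated ES cells display. The fractions, V-S+ and V+S+ with the antigen and V-S- and V+S- without it, thus share genotype, medium and culture time and differ in the gate, with 1 sample per clone in each and 8 samples in all. Venus reports the Hex locus, an early transcript of primitive endoderm, the extraembryonic layer that lines the blastocyst cavity.

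Sample RNA carried Cy3 and was hybridised together with a Cy5-labelled pool of RNA from 11 mouse cell lines, which include fibroblasts, myoblasts and skin cells. Values are log2 ratios, sample over pool, after normalization. A value of 0 therefore means as much signal in the sample as in the pool, and only differences between samples bear on the fractions. The 4 samples of a clone shared a slide of their own, so that clone and slide cannot be told apart. Between 28316 and 29671 probes per sample stood well above background, no spot was saturated, and 29484 probes were tested with limma. A pair of fractions was called different at a false discovery rate (FDR, Benjamini-Hochberg over all probes tested) of 0.05 and more than 1.5-fold, the study's own thresholds. With its own processing and test, the study reported genes past these thresholds in each pair of fractions compared here. These include pairs in which limma called no probe here. The clones are cell lines and nothing states how many cultures stand behind a sample. The p-values thus measure the spread between the 2 samples of a fraction, pooled over the 4 fractions and moderated across probes by limma. Where clone is added to the fit as a block, the mean difference between clones is taken out of that spread.

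As background, keratins assemble only as pairs, an acidic chain (Krt18, Krt19) with a basic chain (Krt8, Krt7), and are found in epithelial cells. Krt8 and Krt18 are the keratins of simple epithelia and among the first to appear in the mouse embryo, in the trophectoderm, and Krt7 and Krt19 accompany them in ducts, trophoblast and other simple epithelia. Vim encodes vimentin, which forms filaments by itself and is known from mesenchymal cells and from cells that leave an epithelium. Parietal endoderm, a derivative of primitive endoderm, is known to hold keratin and vimentin filaments in the same cell.

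The arrays read each gene through 1 oligonucleotide of 60 bases. Bases 31 to 60 of these probes are shown because they are the measured sequences, with AATAAA, the usual signal for polyadenylation, in capitals.
Krt8: aaAATAAAgcctcagctggctctgtcaact
Krt18: caccagagttctgaggcactgaggcagaga
Krt7: tgttggctttAATAAAgggcctctctgaga
Krt19: cgacttgtcAATAAAactatcctccaaggg
Vim: ttggaatagaaagaagctcagcacttaaca
The probes of Krt8, Krt7 and Krt19 held AATAAA, beginning at bases 33, 41 and 40, as did 6.9% of all probes. The probes of Krt18 and Vim did not. The scanner files map none of the probes to the genome, and whether transcripts of related genes bind to them was not tested. Within the array, the longest run that the Krt8, Krt18, Krt19 or Vim probe shared with another probe was 12 to 14 bases. The Krt7 probe shared 33 bases with another probe, Z00055328-1, which has no name here and is described with Krt7 below.

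The mean of all 4 keratins and of Vim was highest in V+S- cells, although in clone 16.1 Krt7 was as high in V+S+ cells. Against V-S+ cells, the ES cell fraction without Venus, they were higher by between 1.65-fold for Krt7 and 4.42-fold for Vim. The means of the keratins in V+S+ cells lay partway between these fractions, and Vim in V+S+ cells still overlapped with V-S- cells. The means of these 4 keratins were lowest in V-S- cells, which hold neither SSEA-1 nor Venus. No gene was called between V-S- and V-S+ cells, and Krt19 overlapped between them. These are bulk samples, in which fewer cells of a type and less RNA per cell cannot be told apart.

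Krt8 encodes the basic keratin of simple epithelia. In clones 5.1 and 16.1, its log2 ratio was -0.11 and 0.08 in V-S- cells, 0.38 and 0.67 in V-S+ cells, 0.96 and 1.46 in V+S+ cells, and 1.62 and 1.70 in V+S- cells. The 4 fractions followed each other in this order with no overlap between the pairs of values. Krt18 encodes its acidic partner. Its log2 ratio was -0.25 and -0.11 in V-S- cells, 0.17 and 0.46 in V-S+ cells, 0.93 and 1.17 in V+S+ cells, and 1.56 and 1.55 in V+S- cells. The order was that of Krt8, again with no overlap between neighbours. Over the 8 samples the ratios of Krt8 and Krt18 had a Pearson correlation of 0.99, given as a description since the points share clones and a reference.

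Krt7 encodes a second basic keratin. Its log2 ratio was 0.53 and 0.42 in V-S- cells, 1.00 and 1.17 in V-S+ cells, 1.38 and 1.62 in V+S+ cells, and 2.01 and 1.61 in V+S- cells. The order was the same, but V+S+ and V+S- overlapped, because in clone 16.1 V+S- cells did not exceed V+S+ cells. The unnamed probe that shares 33 bases with the Krt7 probe, which was looked up after the data had been seen, gave log2 ratios of 0.51 and 0.41, 0.86 and 0.98, 1.31 and 1.53, and 2.06 and 1.57 in the same order of fractions. Its correlation with the Krt7 probe over the 8 samples was 0.99, and because of the shared bases it is not a separate measurement. Krt19 encodes the smallest acidic keratin. Its log2 ratio was -0.47 and -0.09 in V-S- cells, -0.20 and 0.05 in V-S+ cells, 0.78 and 1.36 in V+S+ cells, and 1.37 and 1.71 in V+S- cells. The fractions without Venus overlapped, and both fractions with Venus lay apart from them and from each other.

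Vim, which encodes vimentin, lay far under the reference pool in every sample. Its log2 ratio was -4.14 and -3.78 in V-S+ cells, -3.98 and -3.64 in V-S- cells, -3.72 and -3.04 in V+S+ cells, and -2.20 and -1.43 in V+S- cells. The first 3 fractions formed a chain of overlapping neighbours, and only V+S- cells stood apart from the next fraction. Across all 8 samples, Vim correlated with the keratins at between 0.70 for Krt7 and 0.87 for Krt19, and the keratins with each other at between 0.88 and 0.99.

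**Figure D1:**
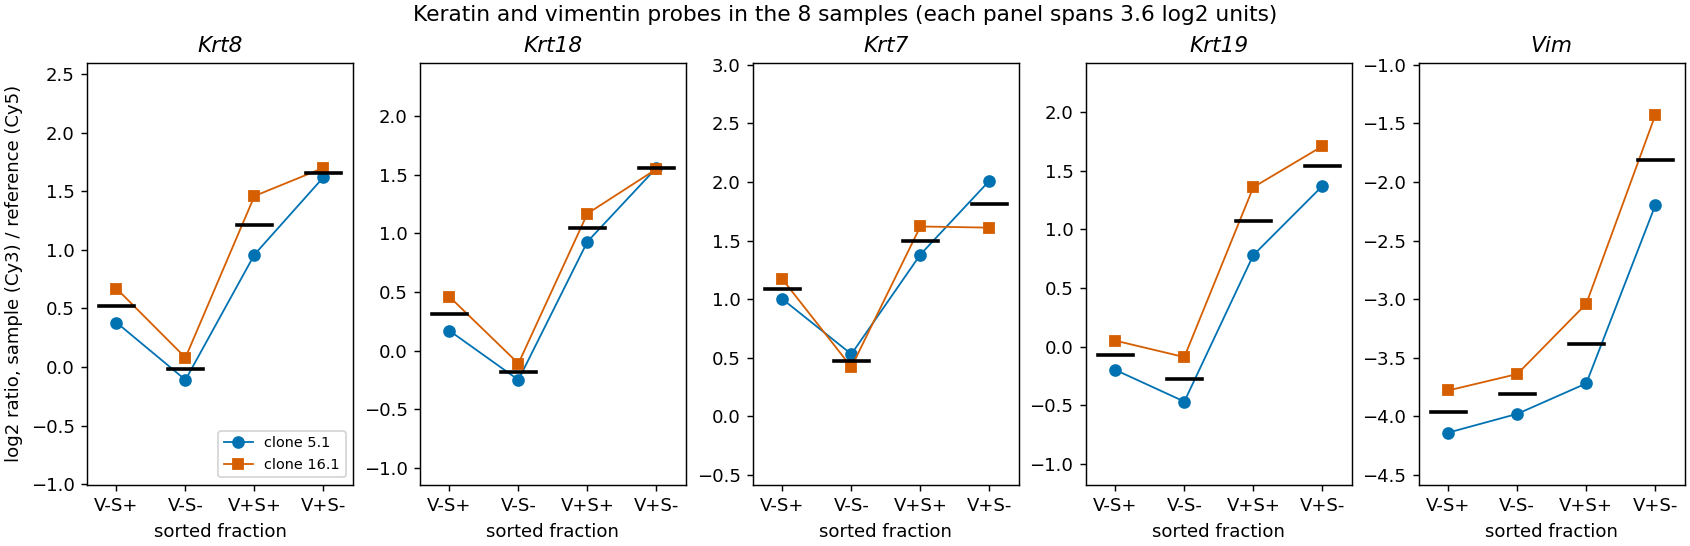
The log2 ratio of sample to reference pool (vertical axis, each panel spanning the same number of log2 units) is plotted for the 5 probes in the 4 sorted fractions, with a point and line per clone and a black bar at the mean of the pair. The keratins dip in V-S- cells and climb through V+S+ to V+S- cells, whereas Vim stays low in the first 3 fractions and reaches -2.20 and -1.43 in V+S- cells.

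The signal varied more in the sample channel than in the reference channel. Across the 8 samples the Cy3 signal, taken relative to the median of each array, spanned between 1.54 for Krt18 and 2.19 for Vim on the log2 scale. The Cy5 signal of the reference spanned 0.10 for Krt8, 0.26 for Krt18 and for Vim, 0.21 for Krt19 and 0.33 for Krt7. In V+S- against V-S+ cells, the Cy3 channel alone gave a difference of 1.81 for Vim, where the ratio gave 2.14, and of 1.37 for Krt19, where the ratio gave 1.61. For Krt7 it gave 0.90 where the ratio gave 0.73. All 5 probes were well above background in all 16 scanner files. Krt7 was the weakest of them, at no less than 95.6 times the local background in Cy3 and 87.0 times in Cy5, and the lowest Cy3 signal of Vim was at 149 times. The repeat scans of an array differed by at most 0.09 on the log2 scale for any of the 5 probes, which is less than the difference between clones in most fractions.

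**Figure D2:**
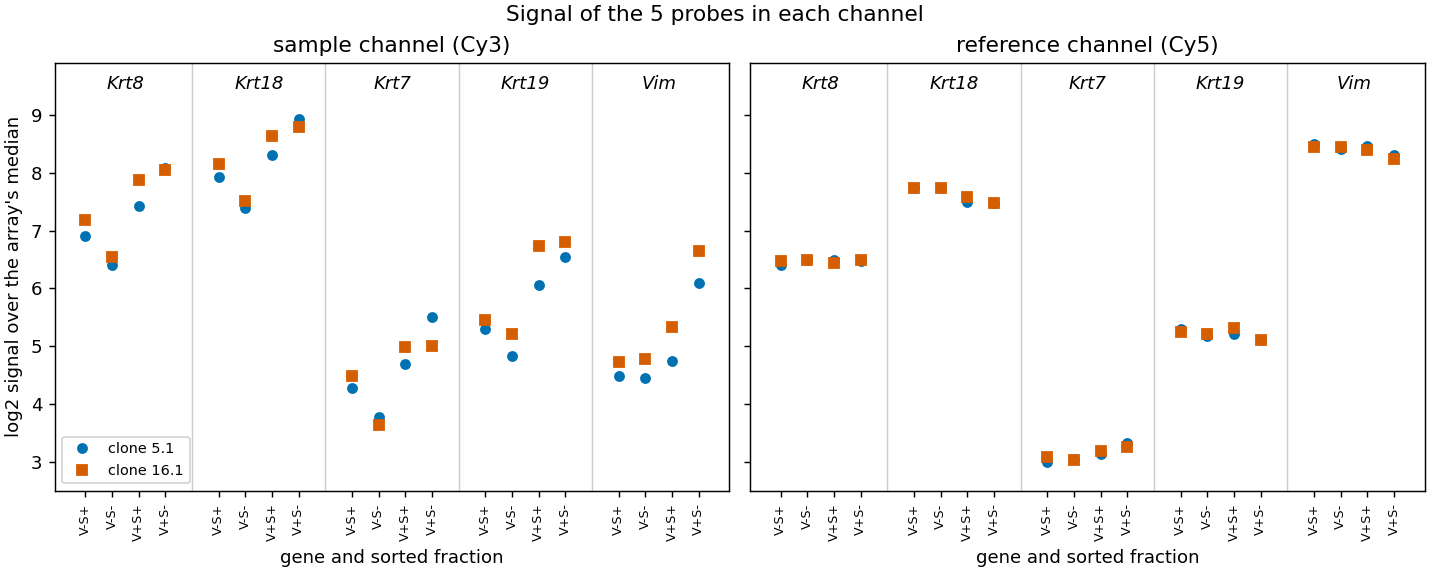
The log2 signal over the median of its array (vertical axis) is plotted for each gene and fraction in the sample channel (left) and in the reference channel (right), with a symbol per clone. The reference stays within 0.33 for every gene while the sample channel varies by 1.54 to 2.19, and levels should be compared within a gene only, since probes differ in brightness.

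All 5 genes rose in V+S- cells against V-S+ cells. Of all probes tested, 5.73% were called higher in this comparison, and the median difference over all probes was 0.01. Both V+S- values lay above both V-S+ values for all 5 genes, as for 35.6% of all probes. Krt8 rose by 1.14 ± 0.18 on the log2 scale (SE, 2 samples per fraction; adjusted p = 0.0180) and Krt18 by 1.24 ± 0.12 (adjusted p = 0.0120). Krt19 rose by 1.61 ± 0.23 (adjusted p = 0.0164), the most of the 4 keratins. Krt7 rose by 0.73 ± 0.15 (adjusted p = 0.0298). Vim rose by 2.14 ± 0.32 (adjusted p = 0.0172), with 1.94 in clone 5.1 and 2.35 in clone 16.1. The difference between the rise of Vim and that of each keratin ranged from 0.37 to 1.90 over both clones and 4 keratins, always with Vim ahead, and was not tested. With clone as a block all 5 were called as well, where 8.87% of all probes were. The calls changed over all probes when single samples were left out. Without V-S+ of either clone or without V+S- of clone 16.1, 0 of the 5 genes and between 0 and 2 of the 29484 probes were called. Without V+S- of clone 5.1, 3 of the genes and 1194 probes were called, and without V-S- of either clone, 4 and 960, against 2065 probes with all samples. With an unmoderated test, or with the authors' deposited values, only Krt18 kept its call, the other adjusted p-values lying between 0.0516 and 0.0942, and Krt7 was also not called from the scanner software's processed signals (adjusted p = 0.0584) or in a fit of the fractions compared alone (adjusted p = 0.0565).

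Against V-S- cells, V+S- cells differ in Venus and not in SSEA-1. All 5 genes rose, where 6.30% of all probes were called higher, and 8.96% with clone as a block, where all 5 were called too. None of the 5 overlapped between these fractions, as for 35.0% of all probes. The rise was 1.68 ± 0.18 for Krt8 (adjusted p = 0.0111), 1.74 ± 0.12 for Krt18 (adjusted p = 0.00839), 1.33 ± 0.15 for Krt7 (adjusted p = 0.0118) and 1.82 ± 0.23 for Krt19 (adjusted p = 0.0129). Vim rose by 1.99 ± 0.32 (adjusted p = 0.0178). The rise of Vim exceeded that of Krt8 by 0.05 in clone 5.1 and 0.58 in clone 16.1, and in clone 5.1 Krt18 and Krt19 rose by slightly more than Vim. Without V-S- of either clone or without V+S- of clone 16.1, none of the 5 genes was called and 0 of the 29484 probes were, against 2298 with all samples. An unmoderated test called 3, Krt8, Krt18 and Krt7, and the authors' deposited values called all but Vim (adjusted p = 0.0539).

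V+S+ cells against V-S+ cells compare cells that both display SSEA-1 and differ in Venus. The differences on the log2 scale were 0.69 ± 0.18 for Krt8, 0.73 ± 0.12 for Krt18, 0.42 ± 0.15 for Krt7, 1.15 ± 0.23 for Krt19 and 0.58 ± 0.32 for Vim. Both V+S+ values lay above both V-S+ values for all 5 genes, as for 27.6% of all probes. The keratin difference minus that of Vim, averaged over the clones, was 0.11 for Krt8, 0.15 for Krt18, -0.16 for Krt7 and 0.57 for Krt19. This was not tested. Limma called none of the 5 genes, with adjusted p-values between 0.147 and 0.369, and 0% of all probes, although 4 of the 5 genes, all but Vim, and 5514 of all probes had an unadjusted p under 0.05. The clones are the same cell lines in every fraction and pair the samples. With clone as a block, Krt8 (adjusted p = 0.00685), Krt18 (adjusted p = 0.00381) and Krt19 (adjusted p = 0.00258) were higher in V+S+ cells, where 3.87% of all probes were. Krt7 was not called (adjusted p = 0.0835), and Vim passed the FDR (adjusted p = 0.0177) but at 1.49-fold stayed under the fold threshold.

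Between V+S+ and V+S- cells, which both hold Venus and differ in SSEA-1, Vim differed more than any of the keratins. It was higher in V+S- cells by 1.56 ± 0.32 on the log2 scale, with 1.52 in clone 5.1 and 1.61 in clone 16.1. Krt8 was higher by 0.45 ± 0.18, Krt18 by 0.51 ± 0.12, Krt7 by 0.31 ± 0.15 and Krt19 by 0.46 ± 0.23. The pairs of values did not overlap for 4 of the 5 genes, all but Krt7, as for 21.9% of all probes higher in V+S- cells. None of the 5 genes was called (adjusted p between 0.134 and 0.429), nor any other probe, with 3 of the 5 genes, Krt8, Krt18 and Vim, and 4429 of all probes at an unadjusted p under 0.05. With clone as a block Vim was called (adjusted p = 0.00676), where 1.75% of all probes were called higher. Krt8, Krt18 and Krt19 then passed the FDR (adjusted p = 0.0353, 0.0166 and 0.0223) at 1.37-fold to 1.42-fold, under the fold threshold. The excess of Vim over each keratin was between 0.86 and 1.61 in both clones and was not tested.

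Put as the position of V+S+ cells on the way from V-S+ (0%) to V+S- (100%) on the log2 scale, Krt8 lay at 46.9% in clone 5.1 and 76.0% in clone 16.1. Krt18 lay at 54.7% and 64.4%, Krt7 at 38.4% and 101%, and Krt19 at 62.9% and 79.2%. Vim lay at 21.5% and 31.5%, under all 4 keratins in both clones.

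The V-S- fraction gave no call in limma for any probe against V-S+ cells (0% of all probes in either direction), with 3 of the 5 genes, Krt8, Krt18 and Krt7, and 834 of all probes at an unadjusted p under 0.05. The difference on the log2 scale was -0.54 ± 0.18 for Krt8, -0.50 ± 0.12 for Krt18, -0.61 ± 0.15 for Krt7 and -0.20 ± 0.23 for Krt19. The 2 values of V-S- cells lay under those of V-S+ cells for Krt8, Krt18 and Krt7, as for 16.5% of all probes. Their adjusted p-values were 1.00, and 0.375 to 0.495 with clone as a block. For Vim the difference was 0.16 ± 0.32 under loess normalization, and -0.09 if arrays were only centred on their medians. With that centring Krt8 was at -0.76, Krt18 at -0.73, Krt7 at -0.81 and Krt19 at -0.42, with adjusted p-values of 0.290 for the first 3 and 0.468 for Krt19.

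The effect of Venus was larger among S- than among S+ cells for all 5 genes, by 0.99 ± 0.25 on the log2 scale for Krt8, 1.00 ± 0.18 for Krt18, 0.92 ± 0.21 for Krt7, 0.67 ± 0.33 for Krt19 and 1.41 ± 0.46 for Vim. Limma called none of these and 0% of all probes, with adjusted p-values from 0.567 to 0.676 for the 5 genes, of which 4, all but Krt19, were at an unadjusted p under 0.05, as were 2340 probes in all. With clone as a block, Krt8 (adjusted p = 0.0419), Krt18 (adjusted p = 0.0357) and Vim (adjusted p = 0.0357) were called, where 0.828% of all probes were. Over the 4 fractions together, all 5 genes passed the moderated F-test (adjusted p between 0.0252 and 0.0395), as did 7.38% of all probes, but leaving out any sample other than those of V+S+ cells left none of them past it.

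**Figure D3:**
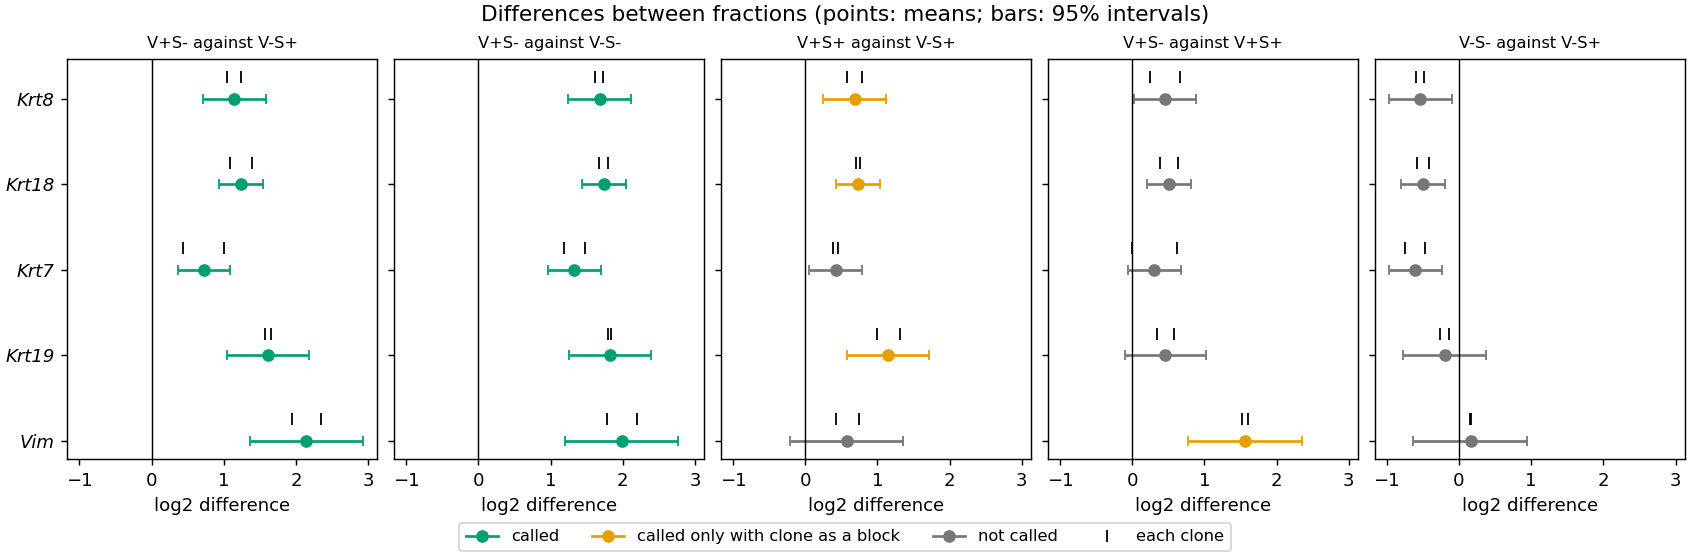
The log2 difference between fractions (horizontal axis) is plotted for the 5 genes in 5 comparisons, as a point with its 95% interval and with black ticks for each clone. All 5 genes are called in the panels of V+S- against V-S+ and V-S- cells, Krt8, Krt18 and Krt19 need the clone as a block in V+S+ against V-S+ cells, and Vim needs it in V+S- against V+S+ cells.

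The clones differed most in Vim. Averaged over the fractions, clone 16.1 had more Vim than clone 5.1 by 0.54 ± 0.08 on the log2 scale (adjusted p = 0.00637) and more Krt19 by 0.39 ± 0.06 (adjusted p = 0.00631). Krt8 was higher by 0.26 ± 0.07 (adjusted p = 0.0341), Krt18 by 0.16 ± 0.06 (adjusted p = 0.0781), and Krt7 differed by -0.02 ± 0.10 (adjusted p = 0.895) or, centred on medians alone, by 0.04. All stayed under the fold threshold, which 1.39% of all probes passed upwards, and Vim passed it, at 0.60, when any 1 of the 4 samples that lack Venus was left out.

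Keratins and vimentin do their work through the proteins that tie filaments to junctions and to the cell base. Of 28 such genes, 6 could be named, and 5 of them were called higher in V+S- cells against V-S+ cells and all 6 against V-S- cells. Of all probes, 5.73% and 6.30% were called higher in these comparisons. The median difference of the 6 genes against V-S+ cells was 0.95, beside 1.24 for the keratins and Vim and 0.01 for all probes. As for the keratins, naming went through the study's list, so that the counts are not independent evidence. Dsp encodes desmoplakin, which links keratin filaments to desmosomes, and it rose by 1.51 against V-S+ cells (adjusted p = 0.0199). Its log2 ratio was 1.36 and 1.68 in V-S- cells, 1.67 and 2.02 in V-S+ cells, 2.24 and 2.92 in V+S+ cells, and 3.22 and 3.50 in V+S- cells, the order of Krt8 and Krt18. Perp, a desmosome protein, rose by 1.44 (adjusted p = 0.0268) and Dsc2, a desmosomal cadherin, by 1.04 (adjusted p = 0.0289). Itgb4, the integrin chain of hemidesmosomes that holds keratin filaments at the cell base, rose by 0.87 (adjusted p = 0.0122) and Cd151, its partner in the membrane, by 0.69 (adjusted p = 0.0199). Eppk1, epiplakin, a keratin-binding protein, was higher by 0.51 (adjusted p = 0.0842). Between V+S+ and V+S- cells the 6 genes differed by a median of 0.43, beside a median of 0.46 for the keratins and Vim and of 0.02 for all probes. With clone as a block Dsp was called higher, where 1.75% of all probes were.

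Other keratins and other filament proteins did not share one direction. Of 4 further keratins that could be named, Krt20 rose by 0.89 against V-S+ cells (adjusted p = 0.0120) and Krt15 by 0.59 (adjusted p = 0.0122). Against V-S- cells Krt20 rose by 0.99 (adjusted p = 0.00976), whereas Krt15, at 0.29, was under the fold threshold with the block and without it. Krt14, a keratin of basal cells, was higher by 0.69 (adjusted p = 0.0614, and called with clone as a block, adjusted p = 0.0147), and was called against V-S- cells (0.97, adjusted p = 0.0271). Krt23 had a difference of -0.41 against V-S+ cells (adjusted p = 0.181) and fell by 0.91 against V-S- cells (adjusted p = 0.0288). In V-S- against V-S+ cells, Krt23 was higher by 0.51 and Krt15 by 0.30. Krt20 was at -0.10 and Krt14 at -0.28 there, and none of these was called. In V+S+ cells against V-S+ cells, Krt20 was called higher (0.60, adjusted p = 0.00387) and Krt23 lower (-0.64, adjusted p = 0.00726) with clone as a block, and neither without it. Of 18 other filament proteins 3 could be named. Nefh, the heavy neurofilament chain, fell by 0.85 against V-S+ cells (adjusted p = 0.0187). Lmnb1, a lamin of the nuclear envelope, had a difference of -0.50 (adjusted p = 0.0293), under the fold threshold. Prph, peripherin, a relative of vimentin in neurons, was higher by 0.62 (adjusted p = 0.0712, and called with clone as a block, adjusted p = 0.00239), and was called against V-S- cells (0.81, adjusted p = 0.0360).

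Genes of epithelial junctions and genes of mesenchymal cells were set beside the keratins and Vim. Of 37 junction genes, 12 could be named, of which 5 were called higher in V+S- cells against V-S+ cells and 8 against V-S- cells, with a median difference of 0.78 in both comparisons. The counts were 8 and 10 with clone as a block. St14, the membrane protease matriptase, rose by 0.99 against V-S+ cells (adjusted p = 0.0194), Cldn4, a claudin of tight junctions, by 0.98 (adjusted p = 0.0290), and Ocln, occludin, was higher by 0.93 (adjusted p = 0.0533, and called with clone as a block, adjusted p = 0.000505). From V+S+ to V+S- cells the median difference of the 12 genes was 0.08, and none was called, with the block or without it. They ranged from -0.30 for Marveld3 to 0.78 for Cldn4 (adjusted p = 0.0512 with clone as a block). Of 28 mesenchymal genes, 14 could be named, of which 10 were called higher in V+S- cells against V-S+ cells and all 14 against V-S- cells, with medians of 1.21 and 1.38. All 14 were called in both with clone as a block. Postn, periostin of the extracellular matrix, rose by 1.99 against V-S+ cells (adjusted p = 0.0171), Col1a2, a chain of collagen I, by 1.95 (adjusted p = 0.0177) and Tgfbi, another matrix protein, by 1.84 (adjusted p = 0.0113). From V+S+ to V+S- cells the median difference of the 14 genes was 0.61, and 7 were called with clone as a block, Postn, Col1a2 and Tgfbi among them. The others ranged down to the actin-binding calponins Cnn2 (-0.03) and Cnn1 (-0.14), with Lgals1, galectin, at 0.25 and Tagln, transgelin, at 0.39. From V-S+ to V+S+ cells the medians of the lists were 0.62 for the junction genes and 0.56 for the mesenchymal genes, and 8 and 6 genes were called with clone as a block. All comparisons against V+S+ or V+S- cells share those samples, and the difference between the lists was not tested. Of all probes, 5.73% were called higher against V-S+ cells and 6.30% against V-S- cells (8.87% and 8.96% with the block), and with the block 1.75% from V+S+ to V+S- cells and 3.87% from V-S+ to V+S+ cells. The named genes come from a list chosen for differing among the fractions, so that their counts cannot be read against these shares.

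**Figure D4:**
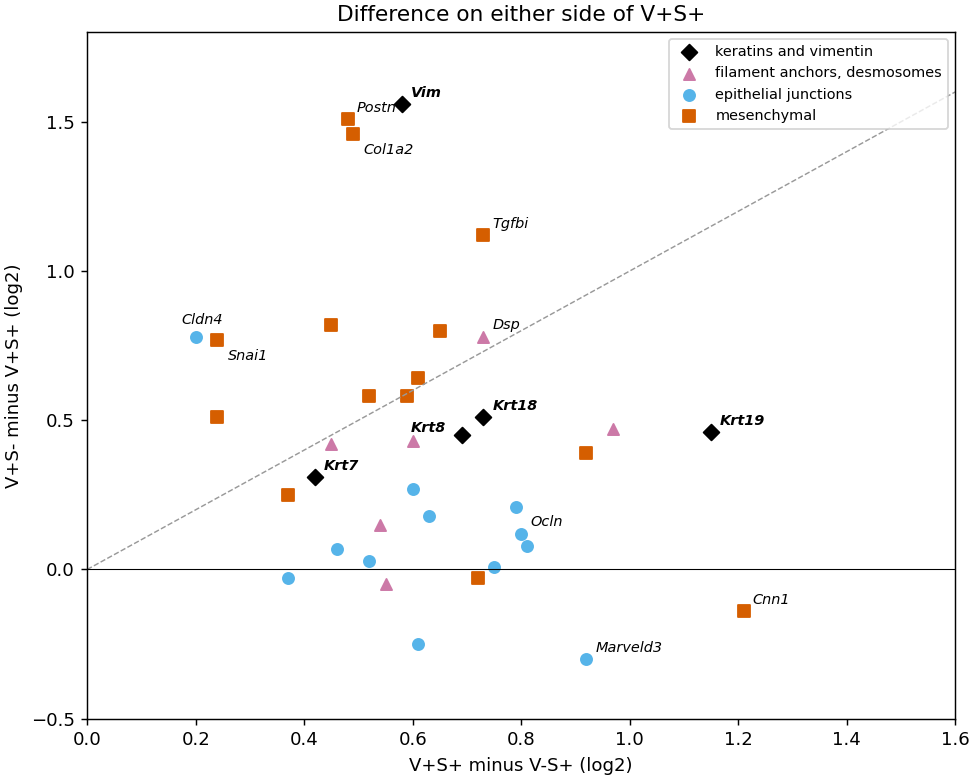
For each gene the log2 difference V+S+ minus V-S+ (horizontal axis) is set against V+S- minus V+S+ (vertical axis), with symbols by list and a dashed line where both are equal. In the means over both clones, Krt8, Krt18, Krt7 and Krt19 lie under the line, most junction genes lie near 0 on the vertical axis, and Vim lies with Postn and Col1a2 at 1.46 to 1.56; the axes share the V+S+ samples, so a gene with a high V+S+ value moves right and down.

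For each of the 5 genes, the 3 named probes whose ratios over the 8 samples were most like it are given as a description. The 5 genes themselves were left out of this comparison. The named probes come from a list chosen for differing among the fractions, and their median r with these genes lay between 0.74 for Krt7 and 0.89 for Krt19 over 1993 probes. The 3 most like Krt8 were Bmp8b, Gprc5a and Jph2 (r between 0.994 and 0.996). Those most like Krt18 were Anxa1, the membrane-binding protein annexin, Errfi1, an inhibitor of the epidermal growth factor receptor, and OTTMUSG00000015762 (r between 0.992 and 0.995). Those most like Krt7 were Scel, a protein of the cornified envelope, F3, tissue factor, and Il24, a cytokine (r between 0.971 and 0.977). Those most like Krt19 were Amotl1, an angiomotin of cell junctions, Rnf128, a ubiquitin ligase, and Capn2, a calpain protease (r between 0.998 and 0.999). Those most like Vim were Scap, which escorts the regulators of sterol synthesis, and Col1a2 and Postn (r between 0.996 and 0.997).

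Marker lists of other cell types were set beside these genes. Their genes were also named through the study's list of differing probes, so that counts cannot be read against the shares of all probes. Of 29 primitive endoderm genes, 11 could be named, and 10 of them were called higher in V+S- cells against V-S+ cells, where 5.73% of all probes were. The median difference over the 11 was 1.10. Sox7, a transcription factor of primitive endoderm, rose by 1.77 (adjusted p = 0.0154). From V+S+ to V+S- cells the 11 genes differed by between 0.14 for Lrp2 and 1.37 for Sox7, with a median of 0.58. With clone as a block 5 were called higher, where 1.75% of all probes were. Of 25 genes of pluripotent ES cells, 9 could be named. Of these 5, Nanog, Pou5f1, Dppa3, Tdgf1 and Spic, were called lower in V+S- cells against V-S+ cells, where 1.28% of all probes were. With clone as a block 8 were called lower, beside 891 of all 29484 probes. Of 20 trophoblast genes, 4 could be named. Gata3 rose by 1.11 against V-S+ cells (adjusted p = 0.0113) and Plac1 by 1.08 (adjusted p = 0.0135), and Rhox6 and Rhox9 had differences of -0.32 and -0.36 (adjusted p = 0.312 and 0.325). In V+S+ cells against V-S+ cells none of these markers was called without the block. With it, 3 primitive endoderm genes, Lrp2, Cited1 and Serpinh1, were higher by between 0.86 and 1.08, where 3.87% of all probes were called higher. Nanog, Dppa3, Spic and Prdm14 were then lower, at between -1.37 and -0.72, beside 515 of all 29484 probes. Rhox6 and Rhox9 were also called lower with the block, at -0.81 and -0.85 (adjusted p = 0.0111 and 0.0157), as they were in V+S- cells against V-S- cells, at -0.61 and -0.70 (adjusted p = 0.0122 and 0.0133). The keratins and Vim are known from primitive endoderm derivatives, from trophoblast or from fibroblasts, and the part of any of these cells in the values was not tested.

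The promoters of Krt8 and Krt18, the pair that moved most alike, and of Vim are shown as the 250 bases before the start of the gene, from RefSeq on GRCm38.p6, 5′ to 3′ on the strand of the gene. Of the 5 genes, 4 had an entry, and Krt19 is named only. Krt8 and Krt18 are neighbours on chromosome 15, on opposite strands, with no protein-coding gene between them. TATAAA (the TATA box), GGGCGG (a box for Sp factors), TGANTCA (a motif of AP-1 factors), AGATAA (for factors of the GATA family) and TGATAA (for the same family) were searched on both strands. Overlapping matches were counted only on the strand of the gene, and matches are in capitals.
Krt8, chr15:102004343-102004592, minus strand: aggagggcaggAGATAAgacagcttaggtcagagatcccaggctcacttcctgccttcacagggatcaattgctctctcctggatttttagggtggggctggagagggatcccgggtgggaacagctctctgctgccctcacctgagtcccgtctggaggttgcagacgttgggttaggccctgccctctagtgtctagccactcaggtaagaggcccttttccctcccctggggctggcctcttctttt
Krt18, chr15:102027966-102028215, plus strand: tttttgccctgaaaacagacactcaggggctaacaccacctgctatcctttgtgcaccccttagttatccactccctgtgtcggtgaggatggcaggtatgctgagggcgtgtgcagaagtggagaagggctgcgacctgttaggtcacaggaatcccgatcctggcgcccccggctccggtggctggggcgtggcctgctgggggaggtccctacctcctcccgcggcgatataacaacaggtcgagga
Vim, chr2:13574061-13574310, plus strand: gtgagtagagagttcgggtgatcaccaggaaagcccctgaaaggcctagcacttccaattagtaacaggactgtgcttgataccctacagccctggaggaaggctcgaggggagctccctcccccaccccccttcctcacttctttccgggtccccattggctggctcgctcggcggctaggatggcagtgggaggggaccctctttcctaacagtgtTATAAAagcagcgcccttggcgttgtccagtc
The Krt8 promoter held AGATAA once, beginning 239 bases before the start, as did 10.0% of 32851 promoters at any place. The Vim promoter held TATAAA once, beginning 32 bases before the start, as did 12.4% of promoters. The Krt18 promoter held none of the 5 motifs. The Krt7 promoter, not shown, held GGGCGG 4 times and none of the others, where 32.7% of promoters held it at least once. TGANTCA, in 6.7% of promoters, and TGATAA, in 7.9%, were found in none of the 4. A match is a run of letters and was not tested as a binding site.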

How the data were processed

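The authors deposited 16 scanner files with spot intensity in both channels, 2 scans of each of 8 arrays, with a processed table (log10, 25164 probes) that served as an alternative. After each probe's mean was subtracted, that deposited log10 table correlated at 1.00 with ratios of the scanner software's signals, and the level to which each probe was set stays unknown. Headers and methods name different array design numbers. Groups were taken from the sample titles. Signals were background-corrected (normexp, offset of 50), control spots were given no weight, outlier spots were treated as missing, each scan was normalized by loess, and scans were averaged, with limma 3.58.1 in R 4.3.3. Median Cy3 signal was 2.36 to 2.87 times background. Probes had to be detected, by the scanner software's background flag, in every file of some fraction and have no missing value, and the 29484 that did were fitted in 1 model of fraction (lmFit, eBayes). Calls needed an FDR of 0.05 and 1.5-fold. The clone pairs the samples, since it is the same cell line in each fraction. A clone's departures from the means of the fractions correlated across probes at 0.59 to 0.81 over 6 pairs of fractions, so clone was also run as a block.

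Files name no genes, and names came from 1998 rows of the study's list of differing probes. Named were the 5 genes, all nameable members of the filament and anchor lists, the 3 junction and 3 mesenchymal genes that changed most, and the 3 probes most like each gene. Values given for other marker genes (Sox7, Lrp2, Cited1, Serpinh1, Marveld3, the lower pluripotency genes, the 4 trophoblast genes, Cnn1, Cnn2, Lgals1 and Tagln) were chosen after they were seen. The genes, lists and tests were chosen with earlier results of these data known. Alternatives were other background corrections, scalings and filters, single scans, the deposited table, the block, an unmoderated test, the compared fractions alone, no fold threshold, and each sample left out. Tests were checked on simulated data.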

Additional observations from a re-analysis of the deposited data

Results flagged for a closer look

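The effect of Venus differed between S- and S+ cells for 3 genes when clone was a block in limma. It was larger among S- cells by 0.99 on the log2 scale for Krt8 (1.68 in S- and 0.69 in S+ cells, adjusted p = 0.0419), by 1.00 for Krt18 (1.74 and 0.73, adjusted p = 0.0357) and by 1.41 for Vim (1.99 and 0.58, adjusted p = 0.0357). Without the block the adjusted p-values were 0.571, 0.567 and 0.588. The S- effect is taken against V-S- cells, in which Krt8 and Krt18 were at their lowest. With 2 samples per fraction, no sample could be tested as standing apart from its group.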

How the results depend on the processing

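With clone as a block (the replicate block), the number of the 5 genes called went from 0 to 3 in V+S+ against V-S+ cells, from 0 to 1 in V+S- against V+S+ cells, and from 0 to 3 for the difference of the Venus effect. It left the counts of these 5 genes in the other comparisons as they were. Among the lists it raised the calls in V+S- against V-S+ cells from 5 to 8 junction genes, from 10 to 14 mesenchymal genes and from 5 to 8 lower pluripotency genes, and in V+S- against V-S- cells from 8 to 10 junction genes and from 4 to 8 lower pluripotency genes. Over all probes the calls rose from 1688 to 2615 higher and from 377 to 891 lower against V-S+ cells. Against V-S- cells they rose from 1858 to 2642 higher and from 440 to 980 lower. The number called in V+S- against V-S+ cells went from 5 to 1 with the authors' log10 values and to 1 with an unmoderated test, and lay between 0 and 5 without each sample in turn. In V+S- against V-S- cells it was 3 with an unmoderated test and between 0 and 5 without each sample in turn. Where none of the 5 was called in these 2 comparisons, at most 2 of all 29484 probes were. By the F-test it was 1 with the scanner software's processed signals, 0 with the authors' log10 values, 0 with an unmoderated test, and between 0 and 5 without each sample. Between clones it was between 0 and 1 without each sample. The cause of these changes was not tested, except that leaving out a sample leaves its fraction with 1 sample, assumed to vary like the others. The sign turned only for small differences. That of Vim in V-S- against V-S+ cells was -0.09 with median centring, -0.02 without V-S+ of clone 5.1 and -0.01 without V-S- of clone 16.1, in a range of -0.02 to 0.34 without each sample. That of Krt7 between clones was 0.04 with median centring, 0.01 without V-S- of either clone and 0.10 without V+S- of either clone, in a range of -0.11 to 0.10. Of the other values for single genes under an alternative, 644 kept their direction and side of the thresholds, 47 were no longer called and 11 were newly called.

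Over all probes, V+S- against V-S+ cells gave 2065 calls, 81.7% of them higher, against 66.4% with the scanner software's processed signals, 66.3% with Cy3 alone, and 395 calls with the authors' values. V+S- against V-S- cells gave 2298 calls, 80.9% of them higher, against 66.0% with the scanner software's processed signals, 64.4% with Cy3 alone, 96.4% of 3883 calls with median centring, and 650 calls with the authors' values. Median centring moved the median of all probes in this comparison from 0.01 to 0.13 on the log2 scale. The 5 probes were well above background in every file, and there were 2 arrays per fraction.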
